A study of Mus musculus with 2 samples.

Results

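The histone genes of the array were followed from mouse ES cells at day 0 to EB cells at day 4. A probe belonged to the set where the zero-padded number in its target identifier, read as an NCBI mouse Gene number, led to a symbol of a histone gene. That gave 54 probes of 52 genes, out of 8102 genes named in the same way and 46643 probes in all. Of the 52 genes 43 were replication-dependent genes (1 of H1, 10 of H2A, 13 of H2B, 8 of H3 and 11 of H4), 7 were variant genes and 2 were pseudogenes. The RefSeq table holds 113 such symbols, and the others were not analysed here.

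The study hybridised 1 RNA sample per group, and both arrays lay on the same bead chip. The labels give mouse ES cells at day 0 and mouse EB cells at day 4, with no strain, line, medium or differentiation protocol; the usual reading is embryonic stem cells and the embryoid bodies in which they differentiate. With 1 sample per group no test was possible, and culture, array position and day cannot be told apart. The error given beside a log2 difference comes from the spread between the beads of an array, of which each member probe had 21 to 59 in ES and 15 to 62 in EB. It covers measurement within an array and no variation between cultures.

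Core histones H2A, H2B, H3 and H4 form the nucleosome, and the linker histone H1 binds the DNA where it enters and leaves. Most are made by replication-dependent genes, which lie in clusters, lack introns and are transcribed mainly while DNA is copied; their mRNAs end in a stem-loop rather than a poly(A) tail. Variant genes such as those of H3.3 and H2A.Z lie alone, are expressed throughout the cell cycle and give polyadenylated mRNAs. ES cells divide fast and spend much of their cycle in S phase, when new nucleosomes need these proteins. Copies within a class are near-identical, the sequences of the probes were not used here, and a probe can bind RNA of several copies, so members of a class are not independent.

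Signals are bead intensities after quantile normalization, and a floor of 230.0 marks the signal that corresponds to a detection score above 0.99 in EB. The EB and ES labels were set beside marker genes. These lists were chosen with earlier results of these data known, so they are no independent check of the labels. All 9 named ES markers had lower signals in EB, with a median log2 difference of -3.00, and Nanog, a core pluripotency factor, gave 14529.8 in ES against 2760.2 in EB. All 5 named markers of the primitive streak and mesoderm had higher signals in EB, with a median of 2.82. Of 5 named markers of feeder fibroblasts 3 were under the floor in both arrays. Col1a1 was lower in EB (2602 in ES and 1007 in EB) and Fbln2 was higher (365 and 2205). Markers of germ cells were not among the named genes.

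The sequences shown first are those before the starts of genes whose differences are described below. H2A and H2B genes often lie head to head and share the stretch between their starts. RefSeq promoters (build GRCm38.p6) were matched by Gene number for 47 of the 52 genes. In 3 pairs with both genes above the floor the H2A and H2B windows overlapped. Capitals mark CCAAT on either strand, the box bound by NF-Y, and the octamer ATTTGCAT on either strand, bound by POU factors such as Oct-1. Each stretch is written 5′ to 3′ on the strand of the H2A gene, from the H2B start to the H2A start.
H2ac13 and H2bc13, chr13:21716184-21716411, + strand: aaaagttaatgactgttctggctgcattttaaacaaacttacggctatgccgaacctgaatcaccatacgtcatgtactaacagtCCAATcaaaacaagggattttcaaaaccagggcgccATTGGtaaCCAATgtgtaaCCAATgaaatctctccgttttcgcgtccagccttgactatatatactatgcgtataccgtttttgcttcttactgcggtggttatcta
H2ac22 and H2bc22, chr13:21787249-21787482, - strand: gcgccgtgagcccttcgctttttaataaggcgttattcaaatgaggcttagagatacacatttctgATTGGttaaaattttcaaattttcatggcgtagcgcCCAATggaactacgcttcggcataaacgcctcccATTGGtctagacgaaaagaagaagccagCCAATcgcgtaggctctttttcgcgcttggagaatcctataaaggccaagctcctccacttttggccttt
H2ac12 and H2bc12, chr13:22035644-22035820, - strand: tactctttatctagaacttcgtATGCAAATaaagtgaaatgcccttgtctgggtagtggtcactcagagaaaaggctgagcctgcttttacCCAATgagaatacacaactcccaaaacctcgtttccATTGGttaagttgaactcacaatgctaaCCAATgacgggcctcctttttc

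The stretches of H2ac13 with H2bc13 and of H2ac22 with H2bc22 each held 4 CCAAT boxes and 0 octamers of these exact letters. The stretch of H2ac12 with H2bc12 held 3 boxes and 1 octamer. For H4 genes the capitals mark GGTCCG, found in the H4 promoter element bound by HINFP, in the 100 bases before the start. The 4 genes shown are those with the largest differences among H4 genes.
H4c1, chr13:23761250-23761349, - strand: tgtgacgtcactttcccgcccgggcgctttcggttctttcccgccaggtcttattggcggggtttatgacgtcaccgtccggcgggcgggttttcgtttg
H4c6, chr13:23551669-23551768, - strand: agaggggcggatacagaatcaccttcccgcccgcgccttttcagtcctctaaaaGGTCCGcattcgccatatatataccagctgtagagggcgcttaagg
H4c12, chr13:21750554-21750653, - strand: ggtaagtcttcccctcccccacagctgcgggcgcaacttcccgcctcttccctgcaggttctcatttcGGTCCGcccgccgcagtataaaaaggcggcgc
H4c18, chr13:21832198-21832297, - strand: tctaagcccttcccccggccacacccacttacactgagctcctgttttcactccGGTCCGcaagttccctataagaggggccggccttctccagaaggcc

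GGTCCG, searched on both strands of the 300-base windows, was in 10 of 11 H4 promoters against 8.25% of all 32851 RefSeq promoters of the table. The windows ran from 250 bases before the start to 50 after it. The match of H4c2 began after the start and that of H4c8 at -5, while the others began between -47 and -18. H4c1 was the H4 gene without these letters. CCAAT was in the windows of all 10 H2A genes, all 11 H2B genes with a promoter, all 7 H3 genes with one and 3 of 11 H4 genes among the replication-dependent members, against 37.4% of all promoters. ATTTGCAT was in 4 of the 10 H2A and 5 of the 11 H2B genes and in 0 of the H3 and H4 genes, against 1.74% of all promoters. Windows of head-to-head genes overlap, so their matches are counted for both. A match describes the letters of the window and does not show binding.

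The classes of replication-dependent genes differed in direction, and also in signal level. Of 43 replication-dependent genes 32 were above the floor in at least 1 array, 31 of them in both. Of these 32 genes 25 had a lower signal in EB, against a background of 44.5% of 3867 named genes above the floor, and 7 a higher one, against a background of 55.3%. Their median log2 difference, EB minus ES, was -0.28, against 0.06 for all named genes, whose quartiles were -0.26 and 0.35. All 9 H4 and all 6 H3 genes above the floor were lower, and so were 8 of 9 H2B genes, while 6 of 8 H2A genes were higher. Those 6 H2A probes gave signals over 20000 in both arrays, while the H2B, H3 and H4 members reached at most 6033.8. The dimmer H2A genes H2ac19 and H2ac18 were lower in EB, so class and signal level cannot be told apart. Sizes were small. By a 2-fold rule 0 of 32 were lower and 0 higher, against backgrounds of 5.35% and 3.72%. By a 1.5-fold rule (log2 0.58) 3 were lower (H4c1, H4c6 and H2ac19) and 0 higher, against 12.0% and 12.4%, a share of lower genes near the background. That count of 3 depended on the setting. It was 4 without normalization and with equal array medians, with H4c12 added, against 12.1% and 12.0% of all named genes there. It was 6 after normexp correction, which removes a modelled background, against 14.4% of all named genes there, with H4c12, H4c18 and H2bc13 added, and 7 with the authors' series value table, whose making was not stated, against 19.5%, with H2bc11 added as well. In bulk RNA fewer cells of a type and less RNA per cell cannot be told apart.

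**Figure D1:**
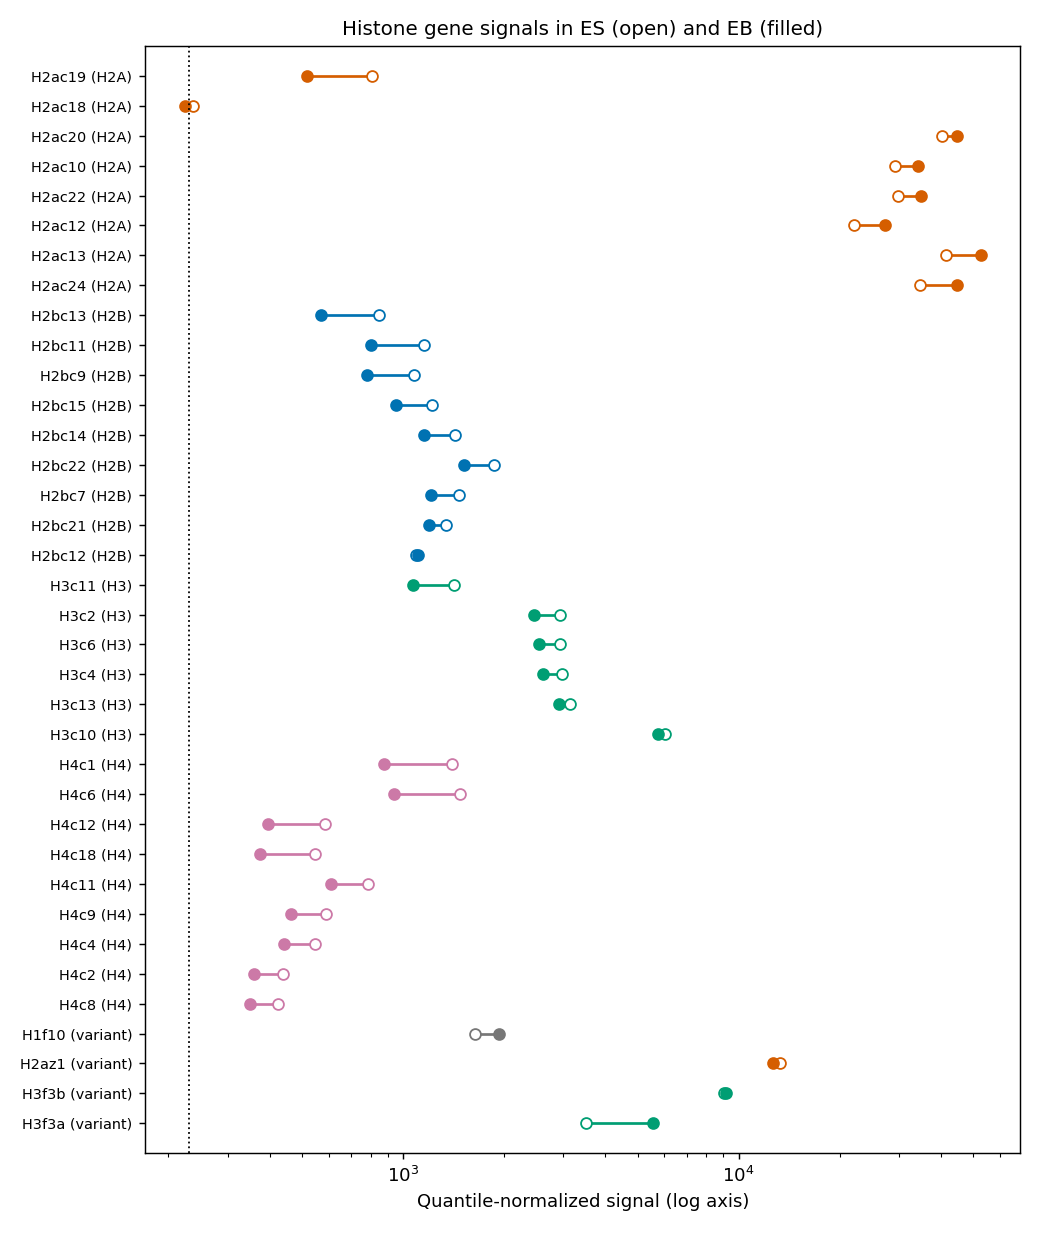
Quantile-normalized signal of the 36 histone genes above the floor, on a log axis, with open points for ES, filled points for EB and colours for the class; the dotted line is the floor of 230.0. The lines of H4 genes run to the left from ES to EB, and those of 6 H2A genes to the right; levels of different probes are not comparable.

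The H4 genes encode the partner of H3 in the nucleosome core. Their 9 members above the floor had a median log2 difference of -0.37, from -0.67 to -0.28, and the difference exceeded 2 bead-level errors in all 9, against a background of 30.6% of all named genes lower by that rule. H4c1 (identifier scl0326619.1_58-S, older name Hist1h4a) gave 1399.7 in ES against 879.8 in EB, which is -0.67 on the log2 scale (bead-level error 0.10). H4c6 was close to it, at 1475 in ES against 940.0 in EB and a difference of -0.65 (bead-level error 0.10). Both stood just past the 1.5-fold rule.

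H4c12 gave 587 in ES against 396 in EB and H4c18 gave 546 against 374, with log2 differences of -0.57 and -0.55. The other 5 lay closer together. H4c11 gave 789 in ES and 610.3 in EB, H4c9 gave 588 and 463, and H4c4 gave 548 and 442. H4c2 (439 and 360.4) and H4c8 (425 and 351) had differences of -0.29 and -0.28. These signals are not far above the floor, and no background was subtracted. H4c3 (216 in ES and 174 in EB) and H4f16, the H4 gene outside the clusters on chromosome 6, were under the floor in both arrays.

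The H3 genes of the clusters encode the replication-coupled forms H3.1 and H3.2. All 6 above the floor were lower in EB, with a median log2 difference of -0.20, and 4 of them by more than 2 bead-level errors, against the same 30.6%. H3c11 differed most, from 1421 in ES against 1074 in EB, a difference of -0.40 (bead-level error 0.09). H3c2 had 2939 and 2459, H3c6 had 2934 and 2535, and H3c4 had 2985 and 2620.4, with differences of -0.26, -0.21 and -0.19. H3c13 (3139 and 2915) and H3c10 (6034 and 5746) were within 2 bead-level errors of no difference, at -0.11 and -0.07. A second probe of H3c4 stayed below the floor (158 in ES and 189 in EB), as did H3c8 and both probes of H3c7.

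H2B genes encode the partner of H2A. Their 9 members above the floor had a median log2 difference of -0.30, and 8 were lower by more than 2 bead-level errors, against 30.6% of all named genes. H2bc13 gave 846 in ES against 569 in EB, a difference of -0.57 (bead-level error 0.11), just short of the 1.5-fold rule. H2bc11 had 1151 and 802, and H2bc9 had 1081 and 783, with differences of -0.52 and -0.47. H2bc15 (1218 and 955), H2bc14 (1429 and 1157), H2bc22 (1867 and 1514) and H2bc7 (1468 and 1213) lay between -0.35 and -0.28. H2bc21 of chromosome 3 had 1347 and 1194, at -0.17. The exception was H2bc12, with 1094 in ES and 1109 in EB and a difference of 0.02 (bead-level error 0.13). H2bc3, H2bc4, H2bc6 and H2bc8 were under the floor in both arrays.

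**Figure D2:**
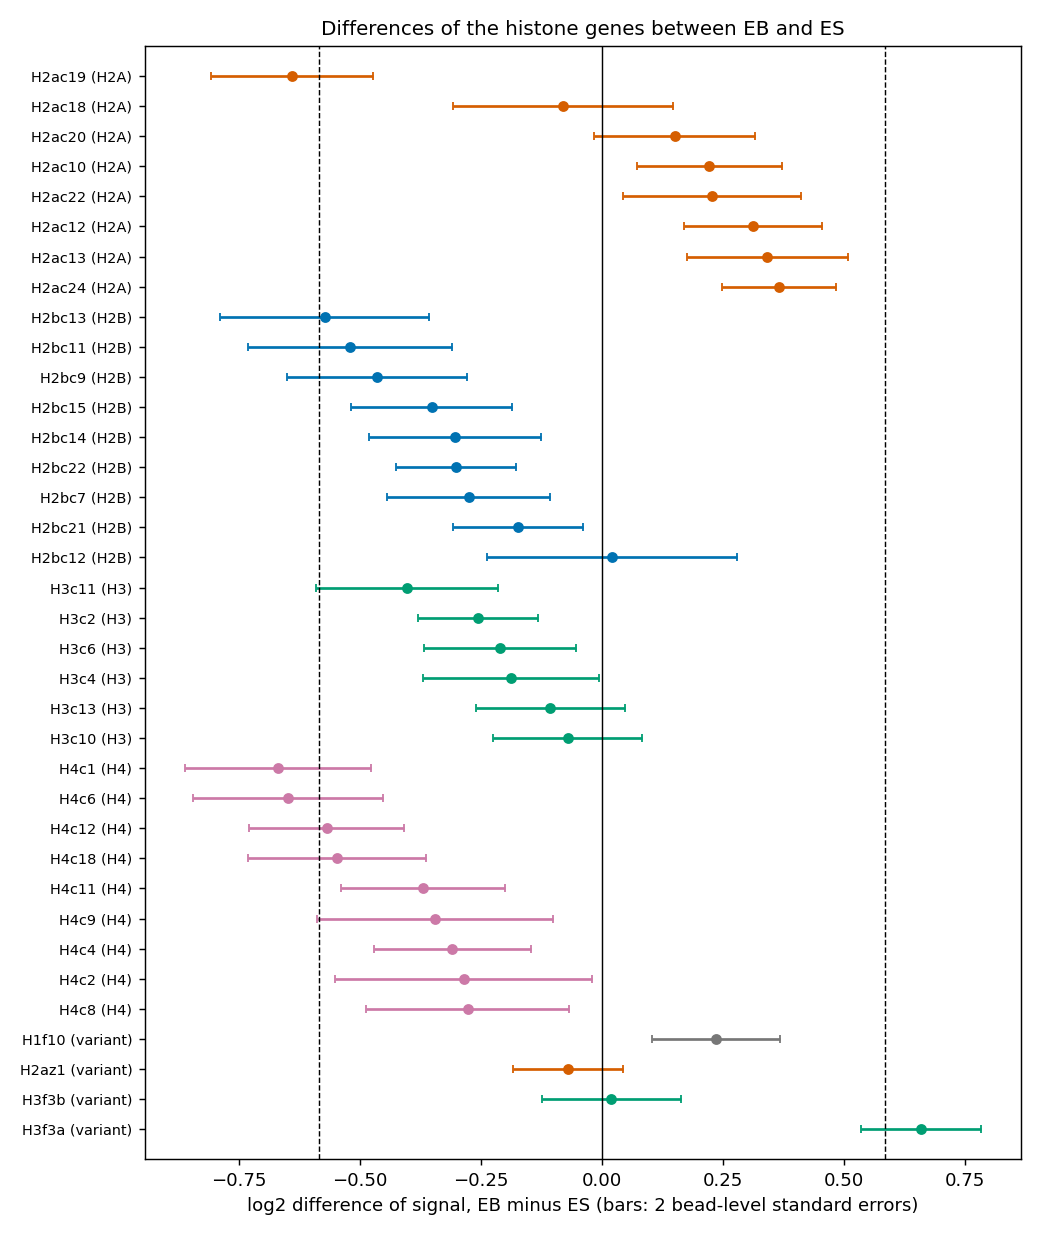
Log2 difference of signal, EB minus ES, of the 36 histone genes above the floor, with bars of 2 bead-level standard errors and dashed lines at the 1.5-fold rule. The replication-dependent H4, H3 and H2B genes lie to the left of 0 apart from H2bc12. Past the left dashed line lie 3 genes, and past the right one lies the variant gene H3f3a.

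Of the 8 H2A genes above the floor 6 were higher in EB, 5 of them by more than 2 bead-level errors, against a background of 37.8% of all named genes. Each of these 6 probes gave signals over 20000 in both arrays. H2ac24 gave 34670.4 in ES against 44647 in EB, a log2 difference of 0.36 (bead-level error 0.06). H2ac13 had 41547 and 52629.8, and H2ac12 had 22029.8 and 27358, with differences of 0.34 and 0.31. H2ac22 (29815 and 34898) and H2ac10 (29269 and 34115) gave 0.23 and 0.22. H2ac20 of chromosome 3 gave 40353 and 44784, a difference of 0.15 within 2 bead-level errors of 0.

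Before normalization the signals of these 6 ran up to 52425.6 in H2ac13 in EB, where the brightest probe of that array had 67813.6. The 85 other named genes with a mean signal over 20000 had a median log2 difference of 0.01 and quartiles of -0.09 and 0.10. Of the other H2A genes H2ac19 gave 806 in ES against 517 in EB, a log2 difference of -0.64 (bead-level error 0.08), past the 1.5-fold rule on the lower side. H2ac18 was above the floor in ES alone, with 237 against 224 in EB, and its difference of -0.08 was within its bead-level error of 0.11. H2ac6 and H2aw, the H2A gene of chromosome 11, were under the floor in both arrays.

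Genes of the same cluster were set side by side. In the head-to-head pair whose shared stretch is printed first, H2ac13 gave 0.34 and H2bc13 gave -0.57, so their differences lay 0.91 apart on the log2 scale. H2ac22 and H2bc22 gave 0.23 and -0.30, which is 0.53 apart. H2ac12 and H2bc12 gave 0.31 and 0.02, 0.29 apart, so both were higher in EB, H2bc12 by less than its bead-level error. On chromosome 3 H2ac20 and H2bc21, whose distance was not measured here, gave 0.15 and -0.17. H4c18 and H2ac24, next to each other among the members on chromosome 13, gave -0.55 and 0.36. In 2 of the 3 pairs defined by their shared stretch the H2A probe was higher in EB and the H2B probe lower. A probe can bind RNA of several near-identical copies, so a value may not belong to the named gene alone. The pairs are therefore not separate cases of neighbours that differ. The pairs of chromosome 3 and of H4c18 were chosen after their values were seen and are in no count.

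**Figure D3:**
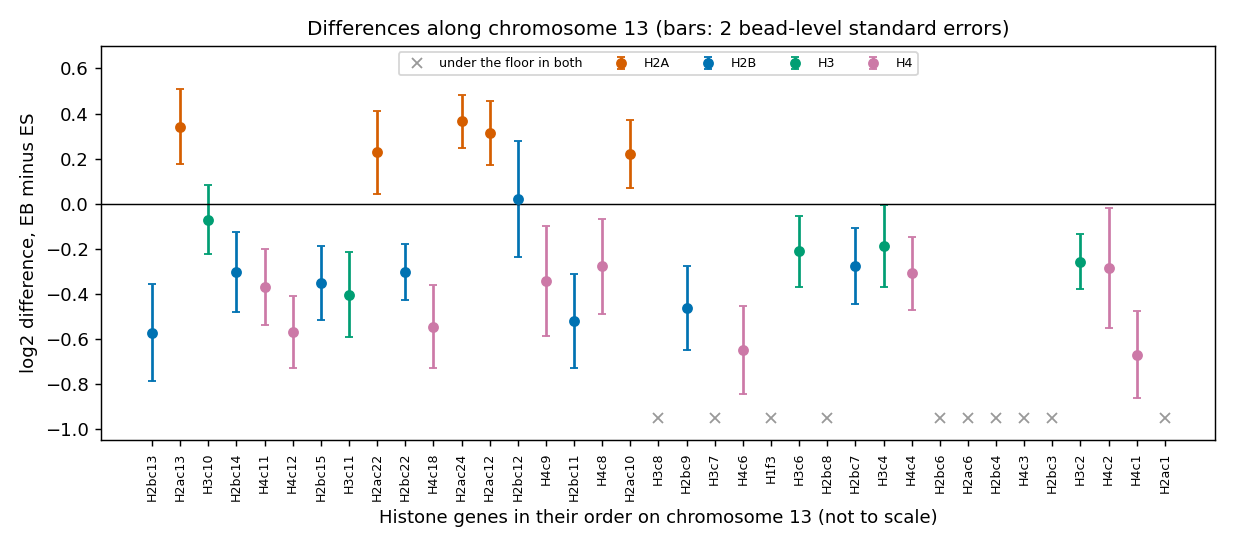
Log2 difference, EB minus ES, of the histone genes in their order along chromosome 13, coloured by class, with bars of 2 bead-level standard errors; crosses mark genes under the floor in both arrays and have no value. The 5 H2A points lie above 0 from 0.22 to 0.36, between H2B, H3 and H4 points that lie below 0 apart from H2bc12.

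By cluster, 27 of 36 replication-dependent genes of chromosome 13 were above the floor. Of these 21 were lower in EB, against 44.5% of all named genes, and the median log2 difference was -0.30. All 5 genes of chromosome 3 were above the floor, with 4 lower, against the same 44.5%, and a median of -0.11. Of them 2 were lower by more than 2 bead-level errors, against 30.6% of all named genes. The gene on chromosome 11 and that on chromosome 6 were not above the floor. On chromosome 13 the 5 H2A genes had a median of 0.31, the 8 H2B genes of -0.33, the 5 H3 genes of -0.21 and the 9 H4 genes of -0.37.

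Of the 7 variant genes 4 were above the floor, in both arrays, with 3 higher and 1 lower in EB, against 55.3% and 44.5% of all named genes, and a median log2 difference of 0.13. H3f3a (identifier scl0015078.1_248-S), of chromosome 1, is 1 of the genes for H3.3, the H3 variant placed into chromatin outside replication. Its signal was 3509 in ES against 5539 in EB, 1.58-fold higher, or 0.66 on the log2 scale (bead-level error 0.06). That was the largest difference of the set on the higher side and the only member past 1.5-fold there, where 12.4% of all named genes lay. H3f3b encodes the same H3.3 protein from chromosome 11. Its probe gave 9048.5 in ES against 9166 in EB, a difference of 0.02 (bead-level error 0.07). The H3.3 genes thus gave different values, while all 6 replication-coupled H3 genes above the floor were lower.

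H1f10, the linker variant H1.10 and the H1 gene above the floor, gave 1642 in ES against 1932.5 in EB, a log2 difference of 0.23 (bead-level error 0.07). H1f3, a replication-dependent linker gene, did not reach the floor in either array (159 and 173). H2az1, which encodes the H2A.Z found at promoters, had 13285 and 12649, a difference of -0.07 within 2 bead-level errors of 0. The variants known from testis, H2ac1, H2al1m and H2al3, were under the floor in both arrays, as were the pseudogenes Macroh2a3 and H2bu1-ps. In all 16 of the 52 genes were under the floor in both arrays, with signals from 101.7 to 216, and no fold is given for them.

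Genes that make and handle histone mRNA were compared as a list. Of 12 named genes 10 were above the floor, with 6 lower and 4 higher in EB, against 44.5% and 55.3% of all named genes, and a median log2 difference of -0.07. Pou2f1, which encodes the octamer-binding Oct-1, had 1554 in ES and 905 in EB, a difference of -0.78 (bead-level error 0.08). It was the 1 gene of this list past the 1.5-fold rule, against 12.0% of all named genes on that side. Npat, the coactivator of histone genes in S phase, had 266 and 253, just over the floor, at -0.08. Hinfp, whose protein binds H4 promoters, had 196 in ES, under the floor, and 248 in EB. Lsm10, of the U7 snRNP that cuts histone pre-mRNA, gave 0.11 and Nelfe, a subunit of the negative elongation factor, 0.31. Slbp, the stem-loop binding protein, and Cpsf3, the nuclease of the cut, were under the floor in both arrays.

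Histone chaperones and deposition factors bring new histones to DNA. Of 15 named genes 12 were above the floor, with 7 lower and 5 higher, against 44.5% and 55.3% of all named genes, and a median log2 difference of -0.07. The split was 6 and 6 without normalization and with equal array medians. Past the 1.5-fold rule were 0, against 12.0% lower and 12.4% higher. Nasp, a chaperone of H3 and H4, had 9107 in ES and 7494 in EB, at -0.28. Rbbp4 and Rbbp7, subunits that also serve the chromatin assembly factor, gave 0.44 and 0.41. Ino80, a remodeller ATPase, gave -0.54 and Ubn2, of the H3.3 chaperone complex HIRA, -0.35, while Hira itself gave -0.07.

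The S phase list had a positive median. Of 20 named genes 18 were above the floor, with 14 higher and 4 lower in EB, against 55.3% and 44.5% of all named genes, and a median log2 difference of 0.31. Ccne2, a cyclin of S phase entry, was at least 1.88-fold higher in EB. Rrm2, a subunit of ribonucleotide reductase, gave 0.65 and Rfc3, of the clamp loader, 0.63, so 3 of 18 genes were past the 1.5-fold rule on this side, a share near the background of 12.4%. Pcna, the replication clamp, had 610.1 in ES and 757 in EB, at 0.31. On the lower side E2f2 and Ticrr had EB signals under the floor. E2f2 was at least 1.57-fold lower in EB and Ticrr, with 241 in ES, at least 1.05-fold, while Rfc5 gave -0.54. Slbp was counted in this list and in that of histone mRNA. Most S phase genes above the floor had higher signals in EB, as did 6 of 8 H2A genes, while the replication-dependent H3 and H4 genes above it and all but 1 of the H2B genes had lower ones.

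**Figure D4:**
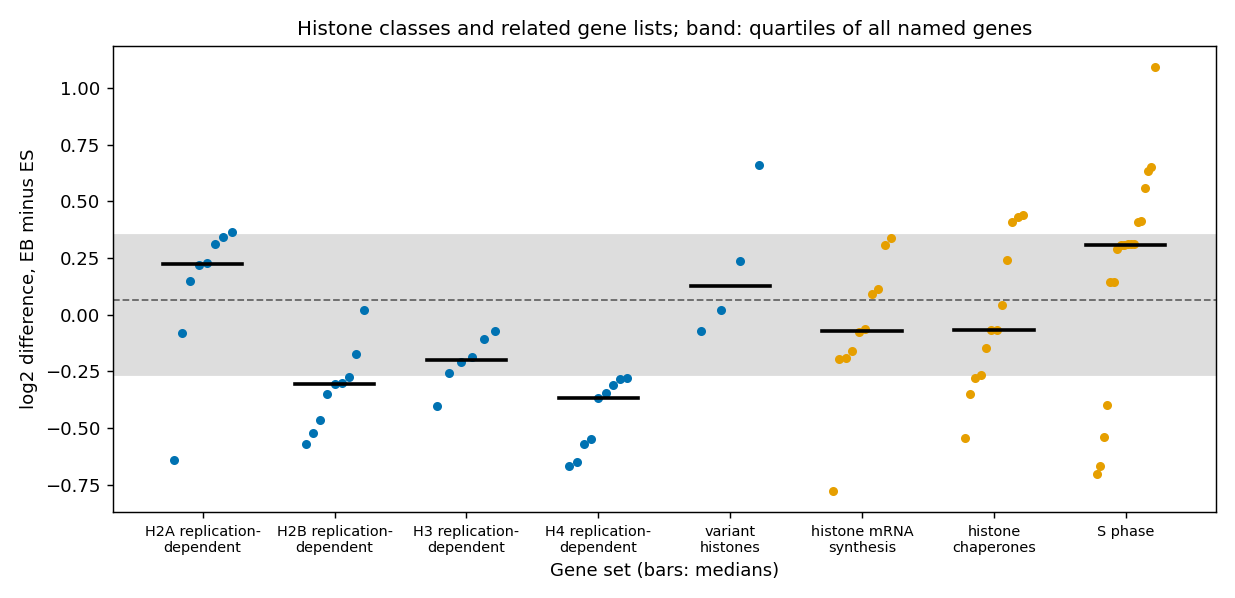
Log2 difference, EB minus ES, of each gene above the floor by histone class and related list, with black bars at the medians; the grey band spans the quartiles and the dashed line the median of all 3867 named genes above the floor. The band is a spread of single genes and no measure for a median. The medians of H4 (-0.37), H2B (-0.30) and H3 (-0.20) lie below 0, and those of H2A (0.22) and the S phase list (0.31) above it.

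Other RNAs with a short poly(A) tail or none were represented by ribosomal and mitochondrial probes. The 3 probes of 18S ribosomal RNA were all lower in EB, with a median log2 difference of -0.46, from -0.63 to -0.19. The 12 probes of the mitochondrial genome above the floor were lower too, with a median of -0.38, from -1.185 to -0.031. Of all named genes above the floor 44.5% were lower. Of the 32 replication-dependent histone genes above it 25 were lower and 7 higher. The labels do not say how RNA was primed for labelling. The part of such RNAs in the histone differences was not tested. Among named genes other than histones, those with a mean signal under 500 had a median log2 difference of 0.08. The median was 0.09 from 500 to 1000 and 0.06 from 1000 to 5000. The part of signal level in the histone differences was not tested either. The 36 members above the floor kept their sign under the 4 other scalings, with 0 exceptions. With normexp correction and with the series value table, all named genes split as in the main setting, 1720 lower and 2140 higher. Those settings therefore add no check of sign. Equal array medians only shift the unnormalized differences by a constant.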

How the data were processed

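Bead arrays measured total RNA of 1 ES sample (day 0) and 1 EB sample (day 4). The deposited signal intensity is the mean over the beads of a probe, per the file headers from BeadStudio 2.3.41 without normalization. The deposited bead count had a median of 38 in ES and 37 in EB. The deposited bead spread was read as a standard error, because it fell with bead number (log-log slopes of -0.44 and -0.47). The deposited detection score, found for EB alone, set the floor: its limit of 0.99 lay at 225.7 before and 230.0 after normalization. Per the submitters' processing notes BeadStudio 2, RMA and limma were used, without roles. The authors' series value table holds linear intensity. The sample titles read "normalised_data", but how the table was made was not stated, so it was an alternative.

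Signals were quantile normalized (Python 3.11.15) without background subtraction. Gene numbers of at least 10000 were looked up in a RefSeq table (GRCm38.p6), naming 9796 probes; the files name no genome build. The brightest probe by mean log2 signal stood for a gene, which entered if above the floor in at least 1 array. A ratio to a signal under the floor is written "at least", while counts past a fold rule use the measured signals. The calculation was tested on simulated data, with changes placed in brighter probes only. That test covered neither signals near the floor nor the 1.5-fold rule. Normexp correction (offset 50, limma 3.58.1, R 4.3.3) was an alternative. All members above the floor are named, and up to 3 genes per direction of other lists, with Npat, Hinfp, Slbp, Cpsf3, Pcna and Hira added for their role after their values were seen. Members, lists and rules were chosen with earlier results of these data known. The number of arrays limits the precision.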

Additional observations from a re-analysis of the deposited data

Results flagged for a closer look

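Probes with no gene name lie outside the comparison of named genes, and 10245 of 36834 were above the floor in at least 1 array; histone genes among them were not identified.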

How the results depend on the processing

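Other settings covered scaling, background, probe choice and detection, 8 in all. No paired analysis was possible because there was 1 sample a group, and none could be left out. The medians of the replication-dependent genes and of each class kept their sign under all 8, and of 96 recomputed values 88 stayed close to the main ones, within the median bead-level error of the genes for a median and within 1.5 times for a count. For signs, normexp correction and the series value table add no check, since all named genes split there as in the main setting. The count of 25 lower and 7 higher of 32 genes was the same under the 4 other scalings. The other probe choice, a mean over probes above the floor, adds no check for the members. No member had a second probe above the floor, so its member values, which are among the 96, could not change. The count was 24 and 7 of 31 with signals above the floor in both arrays, where 1461 of 3313 named genes were lower. With the other detection rule it was 29 and 10 of 39, where 2573 of 5183 named genes were lower. With no filter it was 29 and 14 of 43, where 3776 of 8102 named genes were lower. The settings for the count of 3 replication-dependent genes lower by 1.5-fold were added after seeing the data. That count was 4 without normalization and with equal array medians, 6 with normexp background and 7 with the series value table. Under all 8 settings 0 were higher by 1.5-fold. The H4 median was -0.53 with the series value table. The median of the variant genes was 0.19 with equal array medians and 0.019 with no filter on low signals, where 3 genes under the floor entered. Over all named genes the 2-fold rule gave 527 higher and 468 lower with the series value table, against 144 and 207, and 134 lower with signals above the floor in both arrays, where fewer genes entered. For normexp and the table's values the cause was not tested. No setting moved the median of all named genes by over 0.1.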
